A study of Mus musculus with 38 samples.

Results

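The genes of the colony-stimulating factor 1 receptor, of its ligands and of the related receptors were followed through the hippocampus of APPPS1ΔE9 mice. They are 6 of the 48709 genes counted in each mouse: Csf1r, the ligand genes Csf1 and Il34, and the receptor genes Csf2ra, Csf2rb and Csf3r. They were chosen by symbol, with earlier results of these data known, and all 6 passed the filter on low counts in every comparison. RNA was sequenced from hippocampal tissue of 38 C57BL/6 mice in 8 groups, set by age, genotype and chow. The genotype was WT, or APPPS1ΔE9 with the transgenes for mutant APP and presenilin 1. The chow was placebo, or held the diphenylpyrazole compound anle138b. In the pre-plaque group, chow was given from 2 to 6 months of age, and 4 mice of each genotype on each chow were sequenced at 6 months (16 in all). The post-plaque group received chow from 6 to 10 months of age, and 10 WT mice, 5 on each chow, 5 APPPS1ΔE9 mice on placebo and 7 on anle138b were sequenced at 10 months. The promoter that drives the transgenes is not given in the sources used here. The titles of the 4 libraries from 6-month WT mice on placebo say WT, but their genotype label names the transgenic line, and here they count as WT.

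CSF1R is a receptor tyrosine kinase of microglia and other macrophages, and signaling through it is needed for microglia to survive in the adult brain. It has a pair of unrelated ligands, CSF1 and interleukin-34. In the brain, Il34 is expressed mainly by neurons and Csf1 mainly by glia. CSF2RA and CSF2RB are the chains of the receptor for GM-CSF, CSF2RB is also the shared signaling chain of the interleukin-3 and interleukin-5 receptors, and CSF3R is the receptor for G-CSF, best known from neutrophils and their precursors. In myeloid cells, Csf1r and Csf3r are classical targets of the transcription factor PU.1, the product of Spi1.

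Levels are given as CPM, the read count of a gene scaled to the TMM-normalized library size of the mouse. CPM compares a gene between mice only, so levels of different genes are compared as RPKM, which also divides by the exon length. Differences are log2 fold changes with their standard error (SE) from edgeR's quasi-likelihood test. A difference was called where the Benjamini-Hochberg adjusted p over all tested genes was under 0.1. Each replicate was a separate mouse.

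Total counts were between 15847985 and 31895808 per mouse. App, which counts the transgene as well, was between 3228 and 4318 CPM in APPPS1ΔE9 mice and between 1506 and 1809 CPM in WT mice, so every library fitted its genotype in the titles. The mice are described as male, but 12 of the 38 had high Xist and almost no Y-linked expression, and 11 of these were WT. No sequencing lane held both genotypes at the same age on the same chow, so lane and genotype cannot be told apart. At 6 months all placebo-treated APPPS1ΔE9 libraries were on lane 5 and all anle138b-treated ones on lane 6. Lane and chow cannot be told apart there either. The 8 choroid plexus markers summed to between 33.3 and 8034 CPM. At 6 months this sum was at least 4000 CPM in 3 of 4 mice of every group except the placebo-treated APPPS1ΔE9 mice, where it was 6733, 66.2, 725 and 190 CPM in replicates 1 to 4.

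Il34 and Csf1r had the highest levels per exon length. Over the 38 mice, RPKM was 23.1 ± 2.48 for Il34, 20.3 ± 3.77 for Csf1r, 6.77 ± 1.79 for Csf2ra, 6.54 ± 1.07 for Csf1, 2.49 ± 0.999 for Csf3r and 0.232 ± 0.0639 for Csf2rb (mean and SD, n = 38). In this order Il34 and Csf1r lie within their spread of each other, and so do Csf2ra and Csf1, while Csf3r and Csf2rb stand below them. Precision follows the counts: Csf1r had between 1383 and 4502 reads per mouse, Csf3r between 93 and 398, and Csf2rb between 20 and 61.

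**Figure D1:**
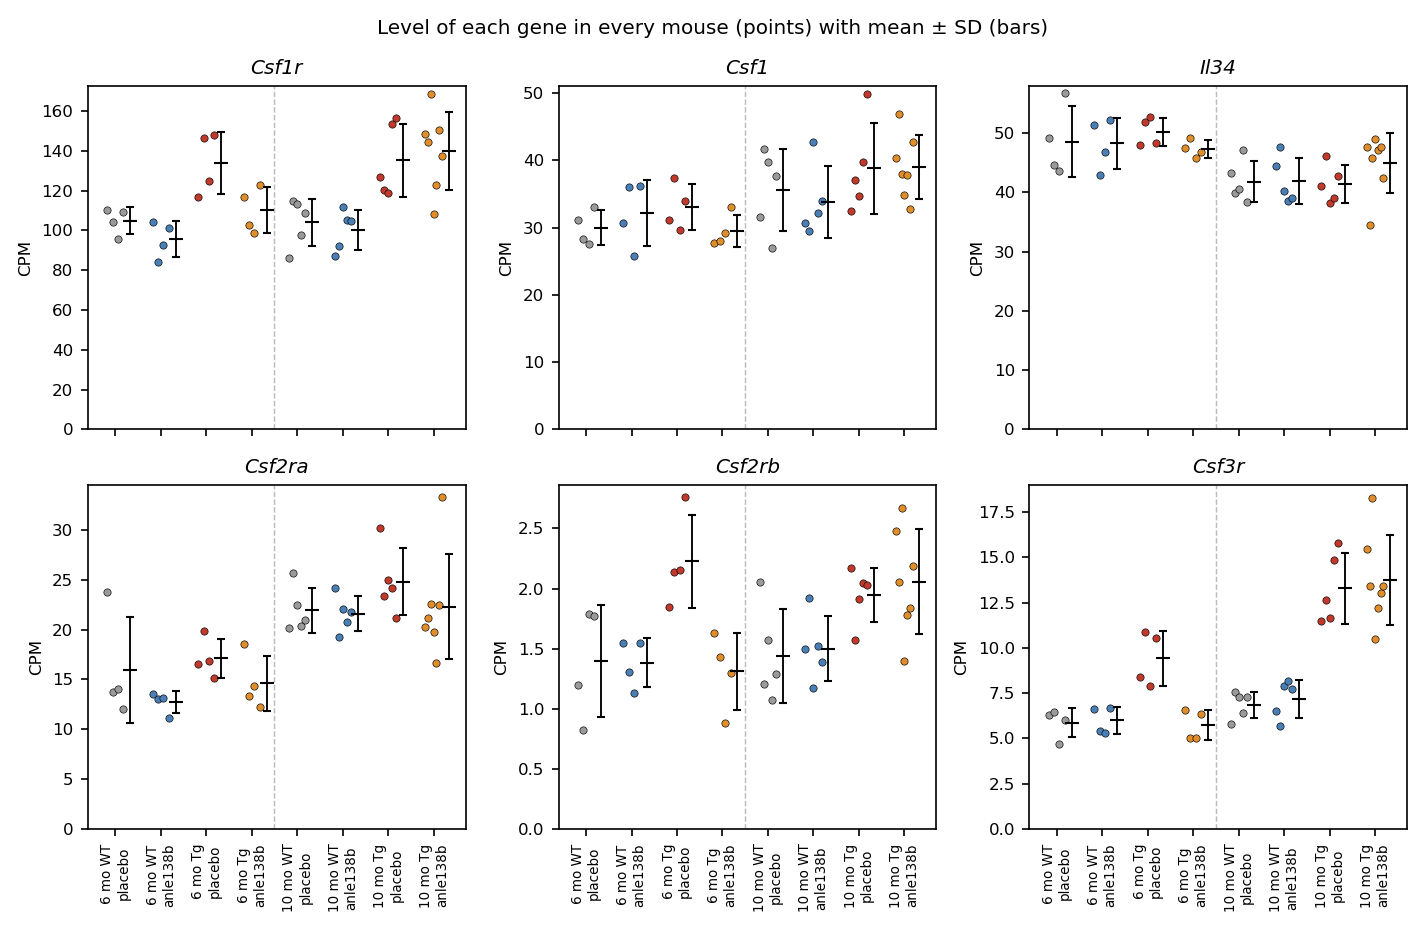
Level of each of the 6 genes in every mouse, as CPM on an axis of its own for each gene, in the 8 groups (Tg, APPPS1ΔE9). Points are mice and bars are group means with SD, and Csf3r of the post-plaque group is at or above 10.5 CPM in all 12 APPPS1ΔE9 mice and at or below 8.15 CPM in all 10 WT mice.

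Csf1r, the receptor itself, was higher in the APPPS1ΔE9 than in the WT mice of the post-plaque group. It is ENSMUSG00000024621, at chromosome 18, 61100598 to 61132149, on the plus strand of GRCm38, and 873 of its 5774 exon bases overlap Hmgxb3 on the opposite strand. Whether reads there were told apart depends on the strand setting of the counting, which is not given in the sources used here.

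In the placebo-treated WT mice of the post-plaque group, Csf1r was 86.3, 115, 113, 97.7 and 108.6 CPM, and in the anle138b-treated WT mice it was 87.1, 92.2, 112, 105 and 105 CPM. In the placebo-treated APPPS1ΔE9 mice it was 127, 120.2, 119, 154 and 157 CPM, and in the 7 anle138b-treated APPPS1ΔE9 mice the lowest value was 108.1, the median 144 and the highest 168 CPM. All 5 placebo-treated APPPS1ΔE9 mice lay above all 5 placebo-treated WT mice, while on anle138b the lowest APPPS1ΔE9 mouse fell among the WT mice.

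Over both chows, Csf1r rose by a log2 fold change of 0.43 (SE 0.08, edgeR adjusted p = 0.00269), in a comparison in which 1.43% of 17668 genes were called. With Y-linked expression as a covariate it was 0.49 (edgeR adjusted p = 0.00400). Among anle138b-treated mice the log2 fold change was 0.48 (SE 0.10, 1.39-fold, edgeR adjusted p = 0.0717), where 0.723% of 17151 genes were called. That call held in 3 of 12 fits with a mouse left out (highest edgeR adjusted p = 0.267) and in 5 of 9 alternatives. Among placebo-treated mice it was 0.37 (SE 0.11, 1.29-fold) and did not pass, with an edgeR adjusted p of 0.511, where 0.324% of 16971 genes were called and 1.40% had values that did not overlap. The genotype effect did not differ detectably between the chows (difference 0.11, edgeR, 0 of 17668 genes called, 2.30% at an unadjusted p under 0.05). The anle138b-treated and placebo-treated APPPS1ΔE9 mice of the post-plaque group differed by 0.05 (95% interval −0.16 to 0.26), and 0% of 17110 genes were called there.

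At 6 months, Csf1r was 110, 104, 95.6 and 109.4 CPM in placebo-treated WT mice and 104, 84.1, 92.8 and 101.4 CPM in anle138b-treated WT mice. It was 117, 146, 125 and 148 CPM in placebo-treated APPPS1ΔE9 mice and 117, 103, 98.6 and 123 CPM in anle138b-treated APPPS1ΔE9 mice. The placebo-treated APPPS1ΔE9 mice were the highest of the 4 groups, and each of them lay above each placebo-treated WT mouse.

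That difference, a log2 fold change of 0.35 (SE 0.08, 1.28-fold, 95% interval 0.20 to 0.51), did not pass the threshold (edgeR adjusted p = 0.282), and with Y-linked expression as a covariate it was 0.47 (edgeR adjusted p = 0.994). Here 0.0715% of 16774 genes were called, while 11.1% had an unadjusted p under 0.05 and 6.07% had values that did not overlap. On anle138b the genotype difference was 0.21 (SE 0.08, edgeR adjusted p = 0.836), where 0.0470% of 17033 genes were called, and over both chows it was 0.28 (SE 0.06, edgeR adjusted p = 0.130), where 0.218% of 17404 genes were called. In APPPS1ΔE9 mice the anle138b-treated group was 0.28 lower than the placebo-treated group on the log2 scale (log2 fold change −0.28, SE 0.09, edgeR adjusted p = 0.323), where 0.0529% of 17009 genes were called. This comparison and the placebo genotype comparison share the same 4 placebo-treated APPPS1ΔE9 mice, so they are not separate evidence. With choroid plexus expression as a covariate, chosen after seeing the data, the 2 values were 0.25 and −0.16 in place of 0.35 and −0.28, and its part in them was otherwise not tested.

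In WT mice, Csf1r of the anle138b-treated and placebo-treated groups overlapped at both ages, with a log2 fold change of −0.13 (SE 0.07) at 6 months and −0.06 at 10 months. Neither passed, and 0% of genes were called in either comparison (16766 and 16986 genes tested by edgeR, of which 1.85% and 1.25% had an unadjusted p under 0.05).

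**Figure D2:**
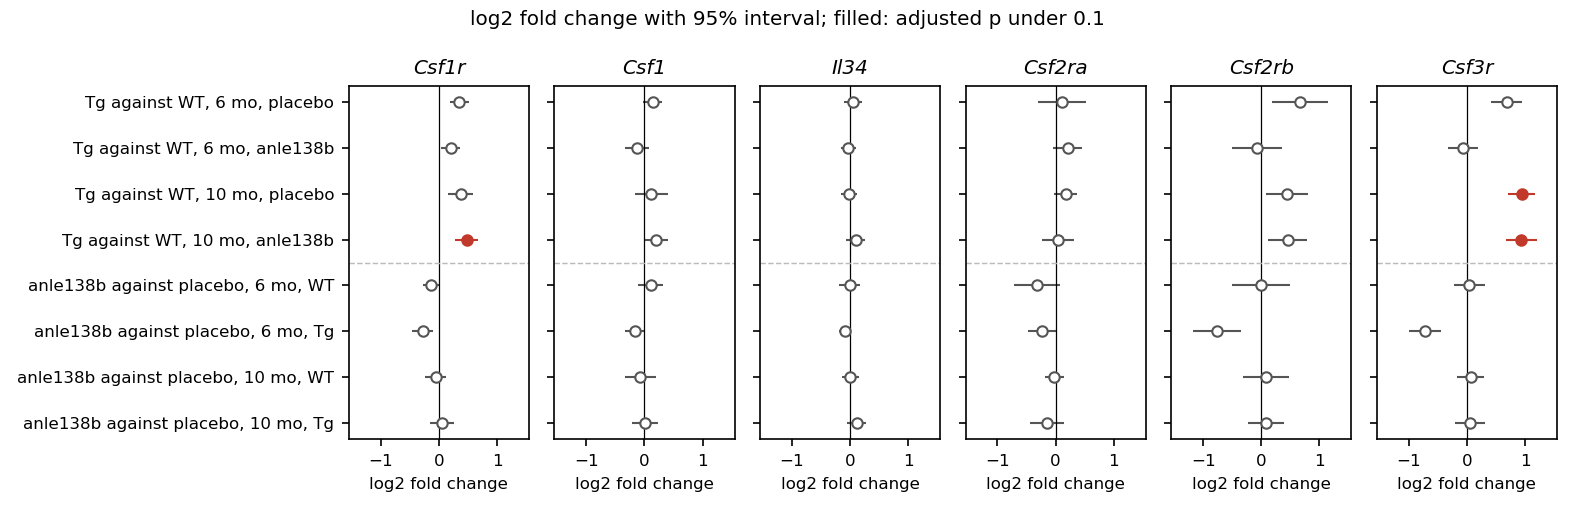
Log2 fold change of each of the 6 genes in the 8 comparisons of 2 groups, with 95% intervals, where a filled point has an edgeR adjusted p under 0.1. The filled points are Csf3r in both post-plaque genotype comparisons (0.95 and 0.93) and Csf1r in the anle138b-treated one (0.48).

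The ligand genes showed no called difference in any comparison. Csf1 is ENSMUSG00000014599, at chromosome 3, 107741050 to 107760470 on the minus strand, and Il34 is ENSMUSG00000031750, at chromosome 8, 110741830 to 110805920 on the minus strand, where 22 and 75 of its exon bases overlap the antisense genes Gm15894 and Gm15895.

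Csf1 was 35.6 ± 6.11 and 33.8 ± 5.29 CPM in placebo- and anle138b-treated WT mice of the post-plaque group (SD, n = 5 and 5), and 38.8 ± 6.74 and 39.03 ± 4.80 CPM in the APPPS1ΔE9 mice (SD, n = 5 and 7). The groups overlapped, and over both chows the genotype difference was 0.16 on the log2 scale (SE 0.09, edgeR adjusted p = 0.830). At 6 months Csf1 was 30.01 ± 2.56 and 32.2 ± 4.95 CPM in WT mice and 33.04 ± 3.43 and 29.5 ± 2.43 CPM in APPPS1ΔE9 mice (SD, n = 4 each). Its pairwise log2 fold changes were between −0.17 and 0.20 over the 8 comparisons, and in all 8 the groups overlapped.

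Il34 was the steadiest of the 6 genes, with 8 pairwise log2 fold changes between −0.09 and 0.12. Its group means were between 47.3 and 50.3 CPM at 6 months and between 41.5 and 44.9 CPM at 10 months, and single mice ranged from 34.5 to 56.9 CPM. The 95% interval of its post-plaque genotype difference over both chows was −0.07 to 0.15 on the log2 scale.

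As a share of the summed RPKM of both ligands, Il34 made up between 66.5% and 83.03% in single mice. The group means of this share were between 80.2% and 81.3% in the pre-plaque group and between 74.3% and 76.9% in the post-plaque group. At each age the mice of the 4 groups overlapped, and no test was run between ages, since age, cohort and sequencing cannot be told apart. The ratio of Csf1r to summed ligand RPKM had group means between 0.539 and 0.643 in the 4 WT groups. It was 0.642 and 0.726 in the APPPS1ΔE9 groups of the pre-plaque group, and 0.804 and 0.823 in those of the post-plaque group.

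Csf3r showed the largest genotype difference of the 6 genes in the post-plaque group. It is ENSMUSG00000028859, at chromosome 4, 126024550 to 126044440, on the plus strand of GRCm38. Its promoter, and those of Csf2ra and Csf1, are shown for the PU box GAGGAA, the core word that PU.1 binds, because Csf3r and Csf1r are known PU.1 targets. The sequences are the 250 bases before the RefSeq start site in GRCm38.p6, written along the gene's strand, for 3 of the 6 genes. No promoter is shown for Csf1r, Il34 and Csf2rb, so whether the Csf1r promoter holds the word is not reported here. Capitals mark GAGGAA or its complement TTCCTC, searched on both strands.

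Csf3r, chr4:126024409-126024658, plus strand: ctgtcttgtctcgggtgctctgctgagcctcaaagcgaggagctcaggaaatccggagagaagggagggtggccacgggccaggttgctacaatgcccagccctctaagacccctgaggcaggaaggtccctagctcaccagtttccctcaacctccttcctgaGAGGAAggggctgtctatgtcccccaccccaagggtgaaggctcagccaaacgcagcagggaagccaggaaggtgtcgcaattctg
Csf2ra, chr19:61228419-61228668, minus strand: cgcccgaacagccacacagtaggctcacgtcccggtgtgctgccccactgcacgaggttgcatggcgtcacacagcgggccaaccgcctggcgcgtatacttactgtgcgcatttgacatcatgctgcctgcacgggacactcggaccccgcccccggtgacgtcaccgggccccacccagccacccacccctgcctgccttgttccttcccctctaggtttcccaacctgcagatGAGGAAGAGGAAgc
Csf1, chr3:107760470-107760719, minus strand: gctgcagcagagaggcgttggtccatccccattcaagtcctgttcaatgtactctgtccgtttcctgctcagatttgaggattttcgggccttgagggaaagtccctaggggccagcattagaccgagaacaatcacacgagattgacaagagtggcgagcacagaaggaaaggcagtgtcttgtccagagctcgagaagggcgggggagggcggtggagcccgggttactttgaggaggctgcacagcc

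The Csf3r promoter held 1 match, its first base 86 bases before the RefSeq start. The Csf2ra promoter held 2 that adjoin each other, at 14 and 8 bases before the RefSeq start. In GENCODE M21, the source of the gene positions given here, Csf3r starts at 126024550 and Csf2ra at 61228429, inside the windows shown. By that annotation these matches lie wholly or partly inside the genes. The Csf1 promoter held 0 matches in this window. Of 32851 mouse promoters of the same length, 7639 (23.3%) held at least 1 match, so the word is common, and a match is not a binding site.

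In the post-plaque group, Csf3r was 5.80, 7.54, 7.26, 6.38 and 7.27 CPM in placebo-treated WT mice and 6.49, 5.67, 7.88, 8.15 and 7.75 CPM in anle138b-treated WT mice. It was 11.5, 12.6, 11.6, 14.9 and 15.8 CPM in placebo-treated APPPS1ΔE9 mice, and in the 7 such mice on anle138b the lowest value was 10.5, the median 13.4 and the highest 18.3 CPM. Every APPPS1ΔE9 mouse was above every WT mouse, on either chow.

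Csf3r rose 1.93-fold with genotype in placebo-treated mice (log2 fold change 0.95, SE 0.12, edgeR adjusted p = 0.00756) and 1.91-fold in anle138b-treated mice (log2 fold change 0.93, SE 0.14, edgeR adjusted p = 0.00692). Genes higher in APPPS1ΔE9 mice with no overlap made up 1.08% and 0.799% of those tested in these comparisons. Over both chows the log2 fold change was 0.94 (SE 0.09, edgeR adjusted p = 1.46e-06). The genotype effects on the chows differed by −0.01, and the anle138b-treated APPPS1ΔE9 mice differed from the placebo-treated ones by 0.05 (95% interval −0.20 to 0.31). With Y-linked expression as a covariate, the placebo difference was 0.85 with an edgeR adjusted p of 0.300, so the call was lost while the difference moved little. In the anle138b-treated mice it was 1.12 with that covariate (edgeR adjusted p = 0.000155).

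Csf3r at 6 months was 6.28, 6.48, 4.71 and 6.00 CPM in placebo-treated WT mice and 6.61, 5.40, 5.31 and 6.67 CPM in anle138b-treated WT mice. It was 8.37, 10.9, 7.89 and 10.5 CPM in placebo-treated APPPS1ΔE9 mice and 6.57, 5.01, 4.99 and 6.36 CPM in anle138b-treated APPPS1ΔE9 mice. Each placebo-treated APPPS1ΔE9 mouse lay above each placebo-treated WT mouse, in a comparison where 2.59% of genes were higher with no overlap, and above each anle138b-treated APPPS1ΔE9 mouse.

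Against placebo-treated WT mice the log2 fold change was 0.69 (SE 0.14, 1.61-fold, 95% interval 0.42 to 0.95), with an edgeR adjusted p of 0.196. Against placebo-treated APPPS1ΔE9 mice, the anle138b-treated ones had a log2 fold change of −0.72 (SE 0.14, 0.607-fold, edgeR adjusted p = 0.191), and 3.40% of 17009 genes were lower with no overlap. Both comparisons use the same 4 placebo-treated APPPS1ΔE9 mice, and in neither can lane be told apart from the factor compared. On anle138b, the APPPS1ΔE9 and WT mice differed by −0.07 (95% interval −0.33 to 0.20). The genotype effect on anle138b minus that on placebo was −0.75 (SE 0.20, unadjusted p = 0.00127, edgeR adjusted p = 0.533), a contrast in which edgeR called 0% of 17404 genes and 7.99% had an unadjusted p under 0.05.

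The calls of these 6-month differences depended on the test. With DESeq2 the placebo genotype difference was called for Csf3r (adjusted p = 0.00978) and for Csf1r (adjusted p = 0.0265). Without the placebo-treated APPPS1ΔE9 replicate 1, whose choroid plexus sum was 6733 CPM, edgeR also called both (adjusted p = 0.0454 for Csf3r and 0.0302 for Csf1r). For each gene this was the only 1 of 8 fits with a mouse left out that gave a call. The APPPS1ΔE9 mice kept in it had choroid plexus sums of 66.2, 725 and 190 CPM, and the WT mice 4000, 7763, 6283 and 193 CPM. With choroid plexus expression as a covariate, the Csf3r values were 0.58 and −0.59 in place of 0.69 and −0.72 and stayed uncalled, with edgeR adjusted p of 0.603 and 0.473. The difference between the chows in APPPS1ΔE9 mice was called for Csf3r in 4 of 8 alternatives, among them DESeq2 (adjusted p = 0.00323) and the Y-linked covariate (−0.76, edgeR adjusted p = 0.099989). With Y-linked expression as a covariate, the placebo genotype difference of Csf3r was 0.97 (edgeR adjusted p = 0.575).

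The genotype effect on Csf3r, averaged over the chows, was 0.64 larger on the log2 scale in the post-plaque than in the pre-plaque group (SE 0.14, 95% interval 0.36 to 0.91, edgeR adjusted p = 0.0711), where 0.176% of 18232 genes were called. The placebo groups alone gave 0.26 (SE 0.19, edgeR adjusted p = 0.908), so the call did not hold in these groups. For Csf1r the same difference was 0.15 (SE 0.11, edgeR adjusted p = 0.817). For both genes age, cohort and sequencing cannot be told apart.

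Csf2ra and Csf2rb, the GM-CSF receptor chains, had no called difference in the main edgeR fits. Csf2ra is ENSMUSG00000059326, at chromosome 19, 61223957 to 61228429 on the minus strand. It was 15.9 ± 5.33, 12.7 ± 1.10, 17.1 ± 2.01 and 14.6 ± 2.78 CPM at 6 months, in WT mice on placebo and on anle138b and then APPPS1ΔE9 mice on placebo and on anle138b (SD, n = 4 each). In the same order it was 21.9 ± 2.29, 21.6 ± 1.79, 24.8 ± 3.37 and 22.3 ± 5.26 CPM in the post-plaque group (SD, n = 5, 5, 5 and 7). The groups of each pairwise comparison overlapped, and the post-plaque genotype difference over both chows was 0.11 on the log2 scale (SE 0.09). The 6 and 10 month levels were not tested against each other.

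Csf2rb is ENSMUSG00000071713, at chromosome 15, 78325752 to 78353847 on the plus strand, next to its close copy Csf2rb2 at 78282507 to 78305721. Of its 7268 words of 50 exon bases, 892 (12.3%) also occur in Csf2rb2, and 892 of the 4836 words of Csf2rb2 (18.4%), so part of the reads of either gene could not be placed uniquely and both levels are uncertain.

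Csf2rb at 6 months was 1.20, 0.825, 1.78 and 1.77 CPM in placebo-treated WT mice and 1.85, 2.14, 2.16 and 2.76 CPM in placebo-treated APPPS1ΔE9 mice. In anle138b-treated APPPS1ΔE9 mice it was 1.63, 1.43, 0.881 and 1.29 CPM, and in anle138b-treated WT mice 1.55, 1.31, 1.13 and 1.55 CPM. As for Csf3r, the placebo-treated APPPS1ΔE9 mice did not overlap with the placebo-treated WT mice (2.59% of genes were higher there with no overlap) or with the anle138b-treated APPPS1ΔE9 mice (3.40% were lower on anle138b with no overlap).

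The log2 fold changes were 0.67 (SE 0.25, edgeR adjusted p = 0.390) for genotype on placebo, −0.08 for genotype on anle138b, and −0.76 (SE 0.21, edgeR adjusted p = 0.280) for chow in APPPS1ΔE9 mice. None passed. In the post-plaque group the genotype difference was 0.45 on either chow and 0.45 over both (SE 0.13, unadjusted p = 0.00178, edgeR adjusted p = 0.115). DESeq2 called the difference over both chows (adjusted p = 0.0539). With a mouse left out, edgeR called it in 4 of 22 fits (edgeR adjusted p between 0.0286 and 0.234). The post-plaque groups overlapped on both chows, with 1.07 to 2.06 CPM in the WT mice and 1.40 to 2.67 CPM in the APPPS1ΔE9 mice. Csf2rb2 had group means of 2.47 to 3.66 CPM at 6 months and 5.60 to 5.96 CPM at 10 months.

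Taking the 6 genes as a list, 2 of 6 were called higher and 0 lower in the post-plaque group over both chows, against 1.32% of all tested genes called higher there. The median log2 fold change of the 6 was 0.29, against 0.00 for all genes. In the pre-plaque placebo comparison 0 of 6 were called, with a median of 0.25, and in pre-plaque APPPS1ΔE9 mice 0 of 6 were called between the chows, with a median of −0.26.

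Csf1r and Csf3r varied together between mice. After subtracting the group means, their log2 CPM correlated with r = 0.89 and rho = 0.84 over the 38 mice, which share library, depth and tissue composition across genes. Csf1 correlated with Csf3r at r = 0.56 and with Csf1r at r = 0.53, Csf2rb with Csf1r at r = 0.25, and Csf2ra with Csf1r at r = 0.13. Il34 stood apart, with r = −0.12 to Csf1r and −0.31 to Csf1.

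**Figure D3:**
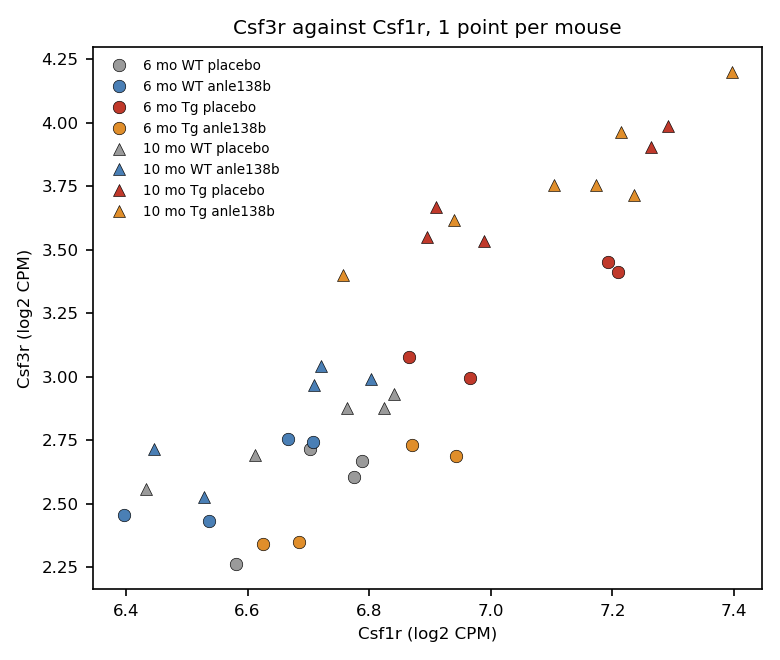
Csf3r against Csf1r in each of the 38 mice, both as log2 CPM, with circles for 6 months, triangles for 10 months and colors for genotype and chow. The 10-month APPPS1ΔE9 mice and the 6-month APPPS1ΔE9 mice on placebo lie toward the upper right. The WT mice and the 6-month APPPS1ΔE9 mice on anle138b lie toward the lower left. These sets overlap on both axes, more so on the Csf1r axis.

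Outside the 6 genes, those whose deviations from the group means were most like those of Csf1r over the 38 mice were Laptm5 (r = 0.89), Cx3cr1 (0.87), Nckap1l (0.85), Mpeg1 (0.84) and C1qb (0.84), of which Cx3cr1 is the fractalkine receptor of microglia and C1qb a chain of complement C1q. For Csf1 they were Sertad2 (r = 0.80), Nup93, Cebpa, Adamtsl2 and Mknk1 (0.79 each). For Il34 they were Ogfod1 (0.81), Lsm11 (0.79), Mapre2 (0.78), Tmem215 (0.77) and Spock1 (0.77). The 3 sets have no gene in common.

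The level of Csf1r was next set against other microglial genes of the same mouse. In bulk tissue, fewer cells of a type and less RNA per cell cannot be told apart, so this compares genes and not cells. Of 10 homeostatic microglia genes, such as P2ry12 and Tmem119, 6 were called higher with genotype in the post-plaque group over both chows. Of the same genes 0 were called lower, with a list median of 0.38, and 1.32% of all tested genes were called higher there. Of 10 genes of microglia and macrophages in general, 10 were called higher, with a median of 0.81. Of 10 plaque-associated microglia genes 7 were called higher, with a median of 1.07. In single mice, the homeostatic list summed to between 269 and 340 CPM in the WT and between 348 and 528 CPM in the APPPS1ΔE9 mice, and the general list to between 235 and 306 CPM and between 364 and 624 CPM. The part of microglial number in the difference of Csf1r was not tested. Csf1r, at 0.43, lay by the homeostatic list, and Csf3r, at 0.94, lay between the general and the plaque-associated lists.

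In the 6-month placebo genotype comparison, 0 of 10 homeostatic, 0 of 10 general and 4 of 10 plaque-associated genes were called higher. There 0.0715% of 16774 genes were called. Irrespective of a call, 9, 9 and 8 genes of these lists had a positive log2 fold change. The list medians were 0.13, 0.39 and 0.49, beside 0.35 for Csf1r and 0.69 for Csf3r. Between the chows in 6-month APPPS1ΔE9 mice none of the 30 was called, with medians of −0.14, −0.32 and −0.41, beside −0.28 and −0.72.

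As log2 CPM minus the mean log2 CPM of the homeostatic list, Csf1r did not pass in any of the 8 comparisons. The post-plaque genotype differences were 0.01 on placebo and 0.03 on anle138b (2-sided exact permutation test, adjusted p = 0.833 and 0.505). The largest, 0.22 in the pre-plaque placebo-treated mice, had an exact permutation p of 0.0286, the smallest that 4 against 4 mice allow, and an adjusted p of 0.229. Set against the general list, Csf1r of these groups overlapped, with 2.21 to 2.59 in APPPS1ΔE9 and 2.40 to 2.49 in WT mice. Against the general list, Csf1r fell by 0.34 in placebo-treated mice of the post-plaque group, from 2.53 ± 0.14 in WT to 2.20 ± 0.05 in APPPS1ΔE9 (SD, n = 5 and 5, exact permutation p = 0.00794, adjusted p = 0.0317). In anle138b-treated mice it fell by 0.32, from 2.51 ± 0.04 to 2.20 ± 0.10 (SD, n = 5 and 7, exact permutation p = 0.00253, adjusted p = 0.0202).

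Csf3r, measured the same way after seeing the data, rose relative to the homeostatic list in both post-plaque comparisons, by 0.58 on placebo and 0.48 on anle138b (exact permutation test, adjusted p = 0.0317 and 0.0202). At 6 months it rose by 0.54 with genotype on placebo and fell by 0.59 with anle138b in APPPS1ΔE9 mice (exact permutation test, adjusted p = 0.0571 for both). Relative to the general list, the post-plaque differences were 0.23 and 0.13 (exact permutation test, adjusted p = 0.0635 and 0.186). The 6-month groups overlapped relative to that list. Placebo-treated mice had −1.59 to −1.15 with the APPPS1ΔE9 genotype and −1.86 to −1.53 with the WT genotype. Anle138b-treated APPPS1ΔE9 mice had −1.97 to −1.55.

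**Figure D4:**
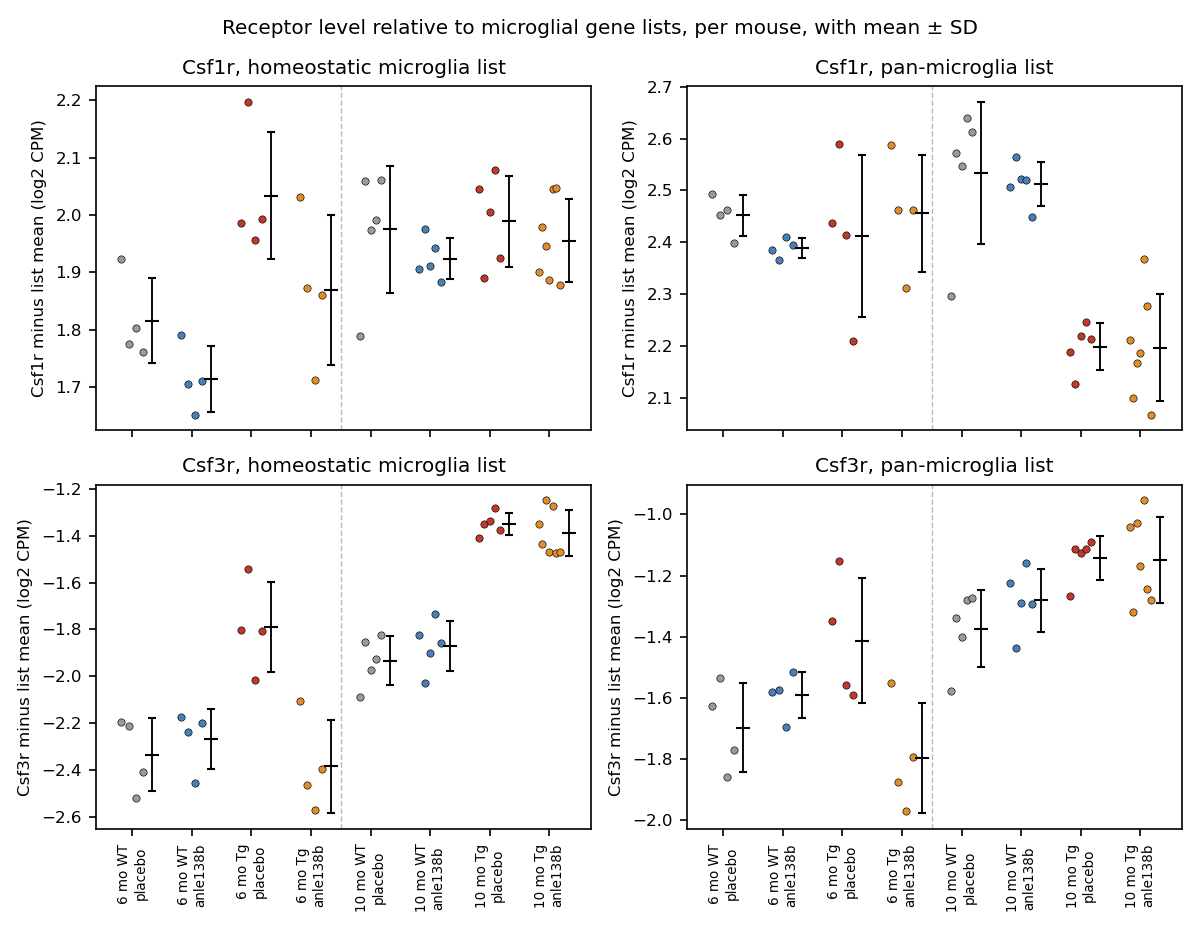
Csf1r and Csf3r in each mouse as log2 CPM minus the mean log2 CPM of the homeostatic microglia list or of the general microglia and macrophage list, by group, with means and SD. Relative to the general list, Csf1r is lower in post-plaque APPPS1ΔE9 than WT mice (2.20 against 2.53 on placebo), and relative to the homeostatic list Csf3r is higher there by 0.58.

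CSF3R is best known from neutrophils, so neutrophil markers were read beside it. Their summed level was between 0.397 and 6.11 CPM over all mice, with a median of 1.07 CPM. In the post-plaque group it was between 0.479 and 1.75 CPM in WT mice, between 0.842 and 3.69 CPM in placebo-treated and between 0.403 and 1.43 CPM in anle138b-treated APPPS1ΔE9 mice. Of the 10 markers, 2 could be tested, and neither was called over both chows. The part of neutrophils in the level of Csf3r was not tested. Markers of border macrophages and monocytes, which also express Csf1r, summed to between 6.07 and 22.8 CPM, and none was called in the post-plaque group over both chows (median log2 fold change −0.28).

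The wider pathway was read from a list of 43 genes, made of other cytokines of these receptors, related receptors and the signaling proteins and transcription factors around them. The list was chosen with earlier results of these data known. At 6 months none was called in any comparison of 38 tested genes, and the median genotype difference over both chows was 0.04. In the post-plaque group over both chows, 7 of 39 tested genes were called higher and 0 lower, with a list median of 0.05. Of all tested genes 1.32% were called higher there.

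The 5 with the smallest p were Tyrobp, the adaptor protein through which CSF1R signaling also acts (log2 fold change 1.39), Irf8, a transcription factor of microglia that partners PU.1 (0.92), Runx1, a transcription factor of early microglia (0.94), Ptpn6, the phosphatase SHP-1 (0.76), and Pik3cg, the gamma catalytic subunit of PI3 kinase (0.42). Spi1, which encodes PU.1, was also among the 7 (0.54), and is named here after its value was seen. Csf3r at 0.94 was of the size of Runx1 and Irf8, and Csf1r at 0.43 that of Pik3cg. Within the placebo-treated mice 2 of 38 tested genes were called higher, Tyrobp by 1.40 and Irf8 by 0.996 (edgeR adjusted p = 0.000212 and 0.000952). There 0.324% of all tested genes were called. In the anle138b-treated mice 5 of 38 were called higher, namely Tyrobp (1.38), Runx1 (1.28), Ptpn6 (0.94), Irf8 (0.85) and Pik3cg (0.54). Of all tested genes 0.723% were called in that comparison. The genotype effect was larger at 10 than at 6 months for Tyrobp by 0.97 (edgeR adjusted p = 0.00502) and for Irf8 by 0.61 (edgeR adjusted p = 0.0745), 2 of 39 genes tested.

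**Figure D5:**
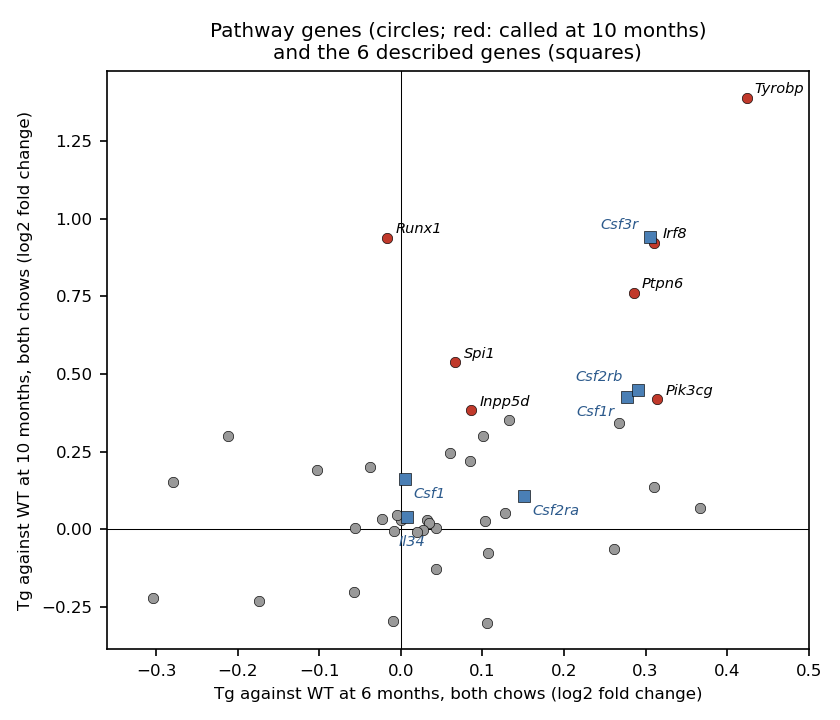
Genotype difference over both chows (log2 fold change) at 6 months on the x axis and at 10 months on the y axis for the 38 pathway genes tested at both ages (circles, red where called at 10 months) and the 6 genes (squares). The circles have a median of 0.04 at 6 months, and Tyrobp (1.39), Runx1 and Irf8 lie high on the y axis, beside Csf3r (0.94).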

How the data were processed

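Hippocampal RNA of 38 mice was sequenced as mRNA libraries (TruSeq). The authors mapped the reads to mm10 with STAR and deposited raw read counts per gene, made with HTSeq in intersection-nonempty mode. The strand setting and annotation release are not given in the sources used here. Groups follow the sample titles and labels, and no library was left out.

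Gene symbols and positions come from GENCODE M21 (GRCm38), with a symbol for 48349 of 48709 genes. Genes passing filterByExpr (minimum count 10, minimum total count 15) were TMM-normalized and compared by the quasi-likelihood test of edgeR (edgeR 4.0.16, R 4.3.3, robust fit), separately for each pair of groups, or over 4 or 8 groups for differences averaged over chows, between chows or between ages. Adjusted p-values (Benjamini-Hochberg over all tested genes) under 0.1 were called. Intervals are the log2 fold change with 1.96 SE on either side. DESeq2 1.42.0, the authors' own tool, was an alternative. Levels relative to a marker list are log2 CPM (prior count 2) minus the mean over the list, compared by a 2-sided exact permutation test over mice, with Benjamini-Hochberg adjustment over 8 comparisons.

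The 6 genes, the gene lists and the tests were chosen with earlier results of these data known. The named genes are the 6 members, Csf2rb2, at most 5 called pathway genes a comparison (Spi1 was added after its value was seen), and the 5 other genes most like Csf1r, Csf1 and Il34. Other alternatives were an adjusted p of 0.05, RLE size factors, keeping genes of low counts, a Y-linked covariate, all groups in one fit and a block by replicate number. The chows were also compared within lane 4 in WT mice and within lane 5 in post-plaque APPPS1ΔE9 mice. In the post-plaque group these lanes held a single mouse of a compared group. Placebo groups only, a prior count of 0.5, another marker list, and each mouse left out in turn were tried too. A choroid plexus covariate and Csf3r relative to the lists were added after seeing the data. Fits of only mice with Y-linked expression were planned for genotype over both chows. They were added after seeing the data for the pairwise genotype comparisons and the difference between ages.

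Total counts were 15847985 to 31895808 per mouse. All 75 pairs of mice that share a group differed by more than sampling noise (chi-square divided by its degrees of freedom 3.17 to 65.3). On simulated counts of 4 against 4 mice with 200 genes changed by a log2 of 1, edgeR called 182 genes, of which 163 were changed, and 3 with no gene changed.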

Additional observations from a re-analysis of the deposited data

Results flagged for a closer look

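Csf2ra had a single high mouse in 2 groups, each set apart from its group by a test for outlying values. Among the anle138b-treated APPPS1ΔE9 mice of the post-plaque group, replicate 7 had 33.3 CPM and the other 6 mice 16.6 to 22.5 CPM. Among 6-month WT mice on placebo, replicate 1 had 23.8 CPM and the other 3 mice 12.1 to 14.0 CPM. The test was run on 48 groups of values, and chance gives about 1 in 20.

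The genotype effect on Csf3r differed between the ages by the test of the difference itself, with a log2 difference of 0.64 (edgeR adjusted p = 0.0711). It was 0.26 in the 4 placebo groups.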

How the results depend on the processing

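Over both chows of the post-plaque group, Csf1r and Csf3r were called in 9 of 9 alternatives and without each of the 22 mice. Their log2 fold changes were 0.42 to 0.49 and 0.94 to 1.05 over the alternatives, and 0.40 to 0.45 and 0.90 to 0.97 with a mouse left out. In the pre-plaque placebo genotype comparison, 0 of the 6 genes were called by edgeR, but 2 with DESeq2, 2 without the filter on low counts, 1 in a fit over all 8 groups, and 0 to 2 with each mouse left out (2 without APPPS1ΔE9 replicate 1). Between the chows in pre-plaque APPPS1ΔE9 mice, 0 became 1 with DESeq2, without the filter, with the Y-linked covariate, over all 8 groups, and without placebo-treated replicate 1 (leave-one-out range 0 to 1), each time Csf3r. For genotype over both chows of the pre-plaque group, 0 became 1 (Csf1r) with DESeq2 (adjusted p = 0.0127), and 0 to 1 with each mouse left out (1 without anle138b-treated APPPS1ΔE9 replicate 3 or placebo-treated APPPS1ΔE9 replicate 1).

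In the post-plaque placebo comparison, 1 became 0 with the Y-linked covariate and 0 with only the mice that have Y-linked expression. On anle138b, 2 became 1 at an adjusted p of 0.05, 1 with the choroid plexus covariate, 1 with only mice that have Y-linked expression, and 1 to 2 with each mouse left out, where Csf1r was called in 3 of 12 leave-outs and Csf3r in 12 of 12. For the difference between ages, 1 became 0 at an adjusted p of 0.05, without the filter, with placebo groups only, and with only mice that have Y-linked expression (0.43, edgeR adjusted p = 0.751). It was 0 to 1 with each mouse left out, and called in 21 of 38. Csf1r relative to the general in place of the homeostatic list gave −0.34 and −0.32 in the post-plaque group in place of 0.01 and 0.03. The causes were not tested.

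The replicate number was also tried as a block. Deviations of same-numbered mice correlated at r between −0.55 and 0.57 over 36 pairs, with means per comparison between −0.22 and 0.31. The sources used here do not say whether same-numbered mice share more than a number. With the block, the post-plaque anle138b comparison went from 2 to 0 (edgeR adjusted p = 0.293 for Csf1r and 0.149 for Csf3r), and genotype over both chows of the pre-plaque group from 0 to 1 (Csf1r, edgeR adjusted p = 0.0638).

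Of 1824 values for single genes under an alternative, 1709 kept their call or, where uncalled, moved by less than 1 SE, 37 lost the call, 21 gained it, 57 uncalled values moved by more than 1 SE and 0 called values reversed. Depth limits Csf2rb most, with 20 to 61 reads a mouse.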
